A study of Homo sapiens with 24 samples.

Results

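The protein part of the cytosolic ribosome was followed at the RNA level in 4 human cancer cell lines after knockdown of IGF2BP1, an RNA-binding protein of the embryo that many tumors switch on again. The members are the protein-coding genes, outside chromosome Y, that are named as proteins of the large subunit (RPL) or the small subunit (RPS), including RPLP0, RPLP1, RPLP2 and RPSA. This name rule, which used no measured value, gave 84 of the 58174 genes in each table, 52 of the large and 32 of the small subunit. Of these, 7 carry L or L1 at the end of the name and are treated as paralogs of a parent member: RPL3L, RPL7L1, RPL10L, RPL22L1, RPL26L1, RPL39L and RPS27L. The lines were A549 (lung adenocarcinoma), ES2 (ovarian clear cell adenocarcinoma), MV3 (amelanotic melanoma) and PANC1 (pancreatic ductal adenocarcinoma). In each, 3 libraries of cells given a control siRNA (siC) were set against 3 of cells given a pool of siRNAs to IGF2BP1 (siI1), both at 15 nM, harvested after 72 h, or after 96 h for PANC1. No genotype was altered, the transfection is shared by both groups, and each line is a single model of its tumor. The 24 libraries were total RNA depleted of ribosomal RNA, and values are FPKM, read counts scaled to gene length and library size. Where nothing else is said, p-values measure the spread between these libraries.

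A ribosome holds one copy of nearly every such protein, each made from its own gene, so the cell has to make them in matched amounts. Their mRNAs are short, abundant and long-lived, and most begin with a C followed by an unbroken run of pyrimidines, the 5′ terminal oligopyrimidine (TOP) tract. Through this tract the mTOR pathway and the protein LARP1 hold TOP mRNAs back from translation, and protect them, when growth signals fall. The paralogs are expressed at lower levels or in particular tissues, and some are known to take the parent's place in the ribosome.

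The starts of some members are shown because the TOP tract is the feature that members share although the rule did not use it. The 30-base windows below hold 10 bases before and 20 bases from a RefSeq transcript start (GRCh38.p14, read along the gene's strand), and capitals mark a C at the start with the C and T bases that follow it, where there are at least 4 of these. Where a parent and its paralog are both shown the parent comes first, and RPL7 and RPL39L are not shown. Some of the members that changed most or moved in opposite directions follow, with RPS16. Others of that kind are not shown: RPL4, RPL10A, RPL15, RPL17, RPL27 and RPL32, which had no such tract at a start, and RPL11 and RPS21, which had it.
RPL22, chr1:6199576-6199605, minus strand: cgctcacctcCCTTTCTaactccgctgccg
RPL22L1, chr3:170870176-170870205, minus strand: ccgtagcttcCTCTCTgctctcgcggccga
RPL26, chr17:8383174-8383203, minus strand: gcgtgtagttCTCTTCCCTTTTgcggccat
RPL26L1, chr5:172958719-172958748, plus strand: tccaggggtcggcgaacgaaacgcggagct
RPS27, chr1:153990752-153990781, plus strand: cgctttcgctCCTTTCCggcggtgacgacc
RPS27L, chr15:63157458-63157487, minus strand: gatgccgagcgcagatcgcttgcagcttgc
RPL39, chrX:119791611-119791640, minus strand: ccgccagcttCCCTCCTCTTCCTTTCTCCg
RPL7L1, chr6:42879606-42879635, plus strand: gtgcggcgccgtagctaggagcggacgcca
RPL18, chr19:48619159-48619188, minus strand: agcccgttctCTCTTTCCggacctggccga
RPS18, chr6:33272065-33272094, plus strand: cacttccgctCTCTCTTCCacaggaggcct
RPL31, chr2:101002279-101002308, plus strand: ccttcgcgctCTTCCTTTCCaacttggacg
RPS6, chr9:19380217-19380246, minus strand: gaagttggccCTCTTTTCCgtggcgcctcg
RPLP2, chr11:809957-809986, plus strand: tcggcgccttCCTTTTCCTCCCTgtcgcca
RPS16, chr19:39435930-39435959, minus strand: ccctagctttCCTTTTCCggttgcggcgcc
Of the 67 members that matched a RefSeq window, 47 (70.1%) had this tract at a start, against 5.14% of all 27305 genes with a window. Counted over windows, the tract stood in 56.6% of 83 member windows and in 4.07% of all 35116. Only 1 of the 5 paralogs with a window, RPL22L1, had it. The search was for a C at the start followed by at least 4 C or T, on the gene's strand only, and a start without a match says only that these letters are not at the annotated position. 17 members had no window.

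Before the members, the knockdown itself was checked. IGF2BP1 was lower in every siI1 library than in every siC library of its line, with a log2 fold change of -1.32 in A549. The value was -1.55 for ES2, -1.52 for MV3 and -1.83 for PANC1. Libraries held 3105215 to 20082702 reads assigned to genes, fewest in A549 and most in MV3. Keratins KRT8, KRT18 and KRT19 were present in A549, where all 3 fell upon depletion (-1.08, -1.51 and -0.53), and KRT19 and SOX9 in PANC1, where KRT19 rose (0.46). Their part in the members' values was not tested. The ovarian markers PAX8, WT1 and MUC16 in ES2 did not reach a mean of 0.5 FPKM, nor did any of the 6 melanocyte markers looked for in MV3, and SFTPB was listed at 0 in every A549 library. Other duct markers were low in PANC1: KRT7 at 1.83 to 3.59 FPKM, MUC1 at 0.247 to 1.12 FPKM and CFTR at most 0.0326 FPKM. KRT8 was higher in PANC1 (638 to 1020 FPKM) than in A549 (235 to 535 FPKM). KRT19 was too (547 to 879 against 78.1 to 124 FPKM), so neither keratin marks A549 alone.

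In the control libraries the members stood far above most genes. The median level of the 77 members that are not paralogs was 127 FPKM for A549, 214 FPKM for ES2, 130 FPKM for MV3 and 122 FPKM for PANC1, where the median of all tested genes was between 4.11 and 4.41 FPKM. RPS12, a small subunit protein, was the member of highest level in A549 (636 FPKM) and ES2 (1633 FPKM), RPS27 was in MV3 (573 FPKM, with RPS12 next at 572 FPKM) and RPS16 was in PANC1 (2249 FPKM). This order depends on the listed gene length that FPKM divides by, which runs from 767 to 9743 nt over the members. RPS12 is listed at 767 nt and RPS27 at 946 nt. In A549 RPS12 had a mean of 2114 reads and RPL4, listed at 5637 nt, had 7862. RPL36A was lowest among the 77 in all 4 lines, at 1.49 to 4.77 FPKM. Its annotation overlaps a readthrough gene that runs into HNRNPH2, as RPL17 and RPS10 also overlap readthrough genes, and their part in the low level was not tested. The paralogs ran from 0 up to 51.6 FPKM, the highest being RPL22L1 in ES2. Levels across lines come from tables normalised one by one. RPL3L, the heart and muscle form of RPL3, and RPL10L, the testis form of RPL10, stayed under the filter of a mean of 0.5 FPKM in each line, so 82 members were tested. RPL10L was listed at 0 in all libraries of A549, ES2 and PANC1, where 3 reads would have given 0.434 to 1.15 FPKM, and reached 0.184 FPKM in MV3. RPL3L did not exceed 0.106 FPKM in any library.

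Many reads of these genes go to processed pseudogenes, the intronless copies that members have left across the genome. The tables list 965 of them, and they took 6.18% to 7.19% of the reads of members and pseudogenes together. RPL21 was the extreme case, with 84.6% to 86.4% of such reads on its 56 listed pseudogenes, so its own values are uncertain. RPL9 (27.3% to 60.1%) and RPL41 (48.9% to 54.0%) followed. RPSA had 35.1% to 47.4% and RPS26 35.7% to 42.3%, and between 14 and 16 members a line had over 10%. Adding these reads to the parents left the counts given below within 1.5 times.

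Across the lines the members moved in different ways, as the plot of changes by line shows. The median log2 fold change of siI1 over siC was 0.29 for A549 and 0.47 for PANC1, against medians of -0.03 and -0.04 for other protein-coding genes. For ES2 it was 0.00 and for MV3 -0.08, against -0.03 and -0.02. The directions for PANC1 and MV3 depend on scaling: with every library brought to the same FPKM sum the PANC1 median was -0.28, and when misc_RNA genes were left out of that sum the MV3 median was 0.03. Relative to the other protein-coding genes of the same libraries, the members' median stood 0.51 higher in PANC1 as deposited and 0.43 higher with equal FPKM sums. In A549 it stood 0.33 higher under both, and in MV3 it was -0.05 and -0.06. Within a line the SD between members was 0.13 (A549), 0.098 (MV3), 0.21 (ES2) and 0.26 (PANC1), against 0.34 to 0.41 among other protein-coding genes. Those genes were not matched for level, and the members stood far above most genes, so the part of level in the smaller SD was not tested.

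**Figure D1:**
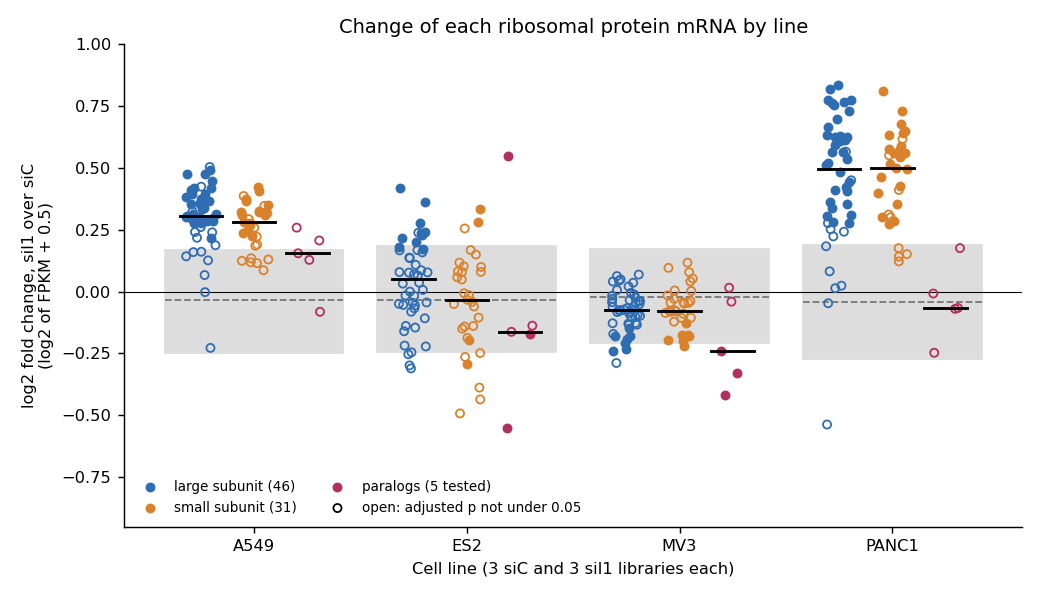
Log2 fold change of siI1 over siC (y axis, log2 of FPKM + 0.5) of each tested member in 4 lines (x axis), by subunit and paralog, filled where the adjusted p is under 0.05; black bars are medians, and the grey band and dashed line are the quartiles and median of other protein-coding genes. Nearly all A549 and PANC1 members lie above zero (79 and 76 of 82), ES2 members lie on both sides and most MV3 members lie just below; with equal FPKM sums the PANC1 median is -0.28, and without misc_RNA genes in the sum the MV3 median is 0.03.

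In A549, 47 of 82 members (57.3%) were higher upon depletion and 0 lower by limma at an adjusted p under 0.05, where 5.93% of all tested genes were higher and 7.83% lower. At an unadjusted p under 0.05 the counts were 63 higher and 1 lower, and by limma voom on recovered reads they were the same. The largest called rises were in RPL26, RPL27 and RPL31, large subunit proteins of which RPL26 and RPL31 sit at the rim of the tunnel through which the nascent chain leaves. RPL26 was at 89.7, 86.4 and 82.7 FPKM in siC and at 111, 121 and 134 FPKM in siI1, with a log2 fold change of 0.49 (SE 0.08) and an adjusted p of 0.011. RPL27 went from 282, 250 and 261 to 341, 375 and 389 FPKM (0.48, SE 0.07) and RPL31 from 64.6, 61.4 and 60.8 to 79.0, 88.2 and 93.5 FPKM (0.47, SE 0.07). In all of these every siI1 library stood above every siC library. RPL17, with the largest value of all (0.50, SE 0.15), had an adjusted p of 0.078. The fewest calls were left without siI1 replicate 2, when 17 were higher, and 22 were without siI1 replicate 3. Leaving out siC replicate 1, 2 or 3 gave 20, 28 and 24.

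RPL15 stood apart from this. This large subunit protein was at 141, 137 and 128 FPKM in the A549 siC libraries and at 104, 120 and 123 FPKM in siI1, the lowest log2 fold change of any member there (-0.23, SE 0.08, adjusted p 0.12), with no overlap of the groups. It was below siC in all siI1 libraries of ES2 (-0.14, adjusted p 0.061) and MV3 (-0.18, adjusted p 0.011), and above in all those of PANC1 (0.34, adjusted p 0.020), by limma as before; with equal FPKM sums the PANC1 value was -0.41. Up to 12.8% of the reads of RPL15 and its 6 listed pseudogenes fell on the latter.

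In PANC1, 56 members (68.3%) were higher and 0 lower, against 11.3% and 13.4% of all tested genes, a count that turned to 34 lower and 0 higher when all libraries were brought to the same FPKM sum. That sum moved the median of all tested genes to -0.68, so the members' median of -0.28 then stood 0.40 above it. Beside this, misc_RNA genes, which hold the 7SL RNAs, took 10.2% to 15.5% of assigned reads in siC and 21.5% to 25.8% in siI1 of PANC1. With them left out of the sum, 56 members were higher and 1 lower. At an unadjusted p under 0.05 there were 62 higher and 2 lower in the values as deposited, and 64 and 1 by voom. The number higher fell to 33 when siC replicate 1 was dropped, and to 32 and 33 when siI1 replicates 1 and 3 were. The number lower was 1 when siC replicate 2 or 3 was dropped.

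The largest called rises in PANC1 were those of RPL18, RPL32 and RPS18. RPL18 was at 49.9, 56.6 and 43.1 FPKM in siC and at 91.2, 86.0 and 89.6 FPKM in siI1 (log2 fold change 0.84, SE 0.10, limma adjusted p 0.0029). RPL32 went from 71.1, 80.9 and 57.5 to 115, 116 and 137 FPKM (0.82, SE 0.14). RPS18 went from 68.6, 73.97 and 42.04 to 86.6, 122 and 110 FPKM (0.81, SE 0.23), just inside the threshold with an adjusted p of 0.049. The siI1 libraries of all 3 stood above the siC libraries. With equal FPKM sums the values were 0.09 for RPL18, 0.07 for RPL32 and 0.06 for RPS18, and none was called. Of the 6 PANC1 members below zero, RPL36A and RPL39L had all siI1 libraries below all siC libraries, and neither was called. RPL36A was at 3.92, 3.32 and 5.32 FPKM in siC and at 2.73, 3.10 and 2.26 FPKM in siI1 (-0.54, SE 0.18, adjusted p 0.077).

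In MV3, 18 members (22%) were lower and 0 higher, where 19.5% of all tested genes were lower and 16.3% higher. The share lower was thus close to that of all genes. At an unadjusted p under 0.05 the counts were 21 lower and 0 higher, by voom they were 30 and 0, and with equal FPKM sums without misc_RNA genes they turned to 8 lower and 16 higher. Called falls were small beyond the paralogs: the largest was in RPLP2, a protein of the ribosomal stalk, at 85.7, 79.6 and 83.1 FPKM in siC and at 62.8, 70.9 and 76.8 FPKM in siI1 (-0.24, SE 0.07, adjusted p 0.047). Its siI1 libraries lay below its siC libraries. The count was 9 and 8 without siC replicates 1 and 2 and 10 and 11 without siI1 replicates 1 and 2.

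In ES2, 13 members (15.9%) were higher and 4 (4.88%) lower, against 10.5% and 13.0% of all tested genes. Voom called 22 higher and 18 lower. With equal FPKM sums without misc_RNA genes 32 were higher and 1 lower, and with a filter of 5 FPKM 9 were lower. RPL22L1, RPS18, RPS21 and RPL7L1 were the 4 that fell. RPS18 was at 114, 136 and 122 FPKM in siC and at 96.9, 103 and 103 FPKM in siI1 (-0.29, SE 0.07, adjusted p 0.030), the opposite of PANC1. RPS21 went from 561, 585 and 530 to 499, 468 and 496 FPKM (-0.19, SE 0.05). In both, the groups did not overlap. Among the rises were RPS27L (described with the paralogs), RPL17 and RPL11. RPL17, another protein of the tunnel rim, went from 19.4, 18.8 and 20.01 to 23.6, 27.9 and 26.9 FPKM (0.42, SE 0.07, adjusted p 0.0084). The counts were 7 and 6 higher without siC replicate 1 and siI1 replicate 3, and 2, 1, 2 and 1 lower without siC replicate 1 and siI1 replicates 1, 2 and 3.

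Taken over the lines, 41 members were called higher in both A549 and PANC1, and 9 of them in ES2 as well: RPL5, RPL6, RPL11, RPL22, RPL26, RPL31, RPL35A, RPS15A and RPS24. With equal FPKM sums no PANC1 member was called higher, so that both numbers became 0. No member was called in the same direction in all 4 lines. A further 11 were higher in PANC1 alone, 8 were lower in MV3 alone (RPL10, RPL14, RPL39L, RPLP2, RPS12, RPS16, RPS20 and RPS23) and 8 tested members were called nowhere (RPL26L1, RPL28, RPL36A, RPL37, RPL41, RPLP1, RPS15 and RPSA). RPL22L1, RPL7L1 and RPS21 were lower in both ES2 and MV3. Calls in opposite directions in 2 lines were made for 8 members. For all of them but RPS18 the fall was called in MV3, where the counts turned with equal FPKM sums without misc_RNA genes. For RPS18 the rise was called in PANC1, and not with equal FPKM sums. Of all tested genes 5.93% were higher in A549, 10.5% in ES2 and 11.3% in PANC1, and 19.5% were lower in MV3. How many of all genes were called in these combinations of lines was not counted, so the numbers only describe the members. The changes of the 82 members correlated between pairs of lines with Pearson's r of 0.21 (ES2 and PANC1) to 0.54 (MV3 and PANC1), given as a description, since all members of a line share its 6 libraries. By Spearman's rho the highest pair was instead A549 and ES2 (0.60), with 0.43 for MV3 and PANC1 and 0.21 for ES2 and PANC1.

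**Figure D2:**
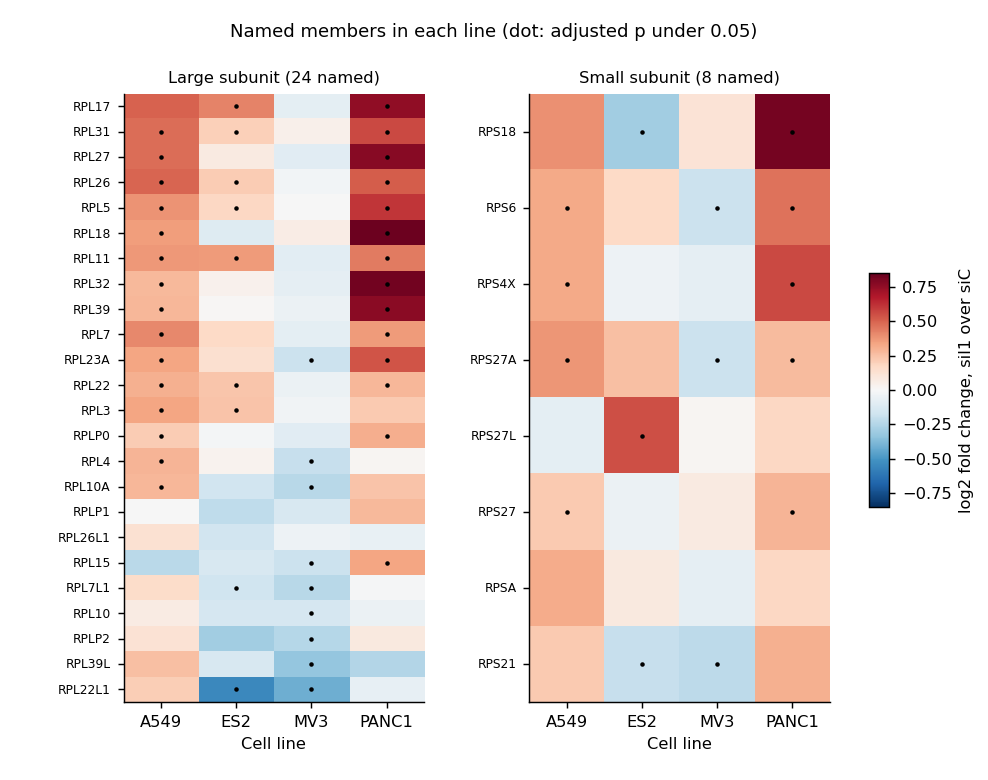
Log2 fold change of siI1 over siC (color) of the members chosen by the rule for named genes (rows, by subunit and mean change) in the 4 lines (columns), with a dot where the adjusted p is under 0.05. Most rows are red in A549 and PANC1, and RPL22L1, RPL7L1 and RPS21 are the rows with dots on blue in both ES2 and MV3; with equal FPKM sums 34 of all PANC1 members are lower and 0 higher.

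The difference between lines was tested by itself. PANC1 was harvested after 96 h and the others after 72 h, so for PANC1 line and time cannot be told apart. In the limma F-test over the 3 differences from A549, the change of 73 of 82 members (89%) differed between lines, against 45.0% of the 12816 genes tested in all lines. Among the 9 members without such a difference were RPL10, RPL26L1, RPL39L, RPSA and the stalk proteins RPLP1 and RPLP2. Of the members called in opposite directions, RPL15, RPS6, RPL4, RPL10A and RPL23A had the smallest p. RPS6, the small subunit protein that is phosphorylated downstream of mTOR, was at 299, 305 and 297 FPKM in A549 siC against 344, 381 and 404 FPKM in siI1, and at 306, 290 and 277 FPKM in MV3 siC against 253, 263 and 253 FPKM in siI1. The change was 0.32 on the log2 scale for A549, 0.46 for PANC1, 0.17 for ES2 and -0.18 for MV3, with an F-test adjusted p of 0.00013. RPL4 was higher in A549 (0.29) and lower in MV3 (-0.19), with values of 0.03 and 0.01 in ES2 and PANC1. RPL10A was higher in A549 (0.28) and lower in MV3 (-0.23), and RPL23A was higher in A549 (0.33) and PANC1 (0.54) and lower in MV3 (-0.18). For RPS6, RPL4, RPL10A and RPL23A the PANC1 values turned negative with equal FPKM sums.

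The share of reads on the members was also compared. In A549 the members took 3.62% to 3.8% of assigned reads in siC and 4.44% to 4.68% in siI1, without overlap. In PANC1 the share went from 3.48% to 4.04% in siC to 4.33% to 4.97% in siI1, and of reads outside misc_RNA from 3.88% to 4.78% to 5.84% to 6.33%. ES2 had the largest share, 6.20% to 6.39% in siC and 6.41% to 6.69% in siI1. In MV3 the groups overlapped, at 3.65% to 3.83% and 3.65% to 3.73%. As a share of summed FPKM, however, the PANC1 members fell from 1.89% to 2.13% in siC to 1.42% to 1.85% in siI1, with the misc_RNA share rising beside it. In bulk samples fewer cells of a kind and less RNA per cell cannot be told apart.

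**Figure D3:**
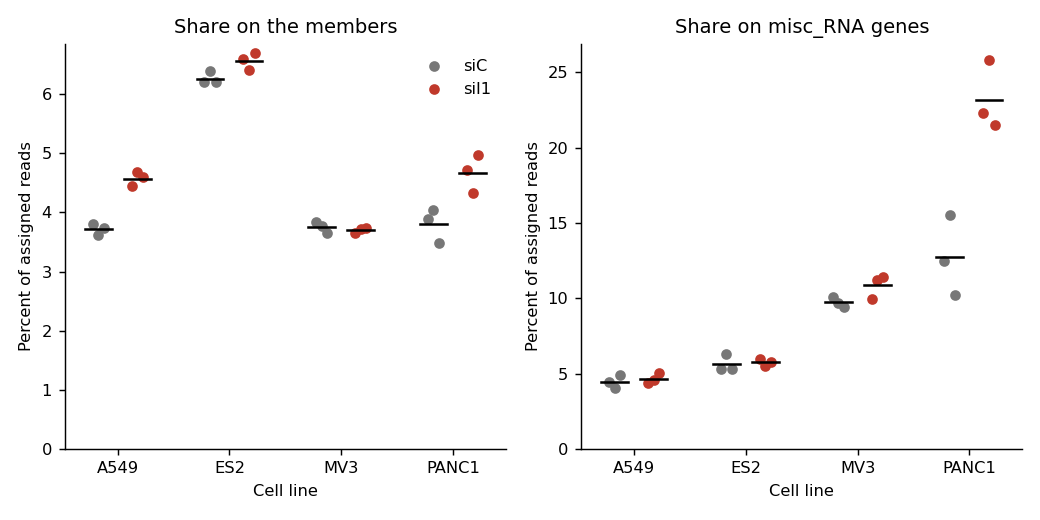
Percent of assigned reads (y axis) on the 84 members (left) and on misc_RNA genes (right) in each siC and siI1 library of the 4 lines, with bars at group means. The member share rises without overlap in A549, ES2 and PANC1, and the misc_RNA share of PANC1 goes from 10.2% to 15.5% in siC to 21.5% to 25.8% in siI1.

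The large and small subunit members had close median changes in each line. Changes in the ratio of large to small subunit depended on how the ratio was taken. Of the 46 large subunit members that are not paralogs, 31 were higher in A549 and 34 in PANC1, and of the 31 small subunit members 16 and 22 were. Their median log2 fold changes were 0.31 and 0.28 in A549 and 0.50 and 0.50 in PANC1. ES2 had 0.05 and -0.03 and MV3 -0.07 and -0.08. The PANC1 medians belong to the values as deposited, and the median of all members turns negative with equal FPKM sums. The log2 ratio of summed large to summed small subunit FPKM within a library, which no scaling between libraries can move, differed most in ES2. There it was 0.31, 0.29 and 0.32 in siC and 0.42, 0.44 and 0.43 in siI1, a difference of 0.13 without overlap, and the difference was 0.098 with medians in place of sums. In A549 it was 0.17, 0.21 and 0.23 against 0.26, 0.26 and 0.28, a difference of 0.07 that turned to -0.03 with medians. In MV3 and PANC1 the groups overlapped, with differences of 0.01 and 0.03. Medians gave -0.05 in MV3 and -0.27 in PANC1, the latter wider than the ES2 difference.

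The PANC1 ratio itself was low, -0.39 in siC where the other lines had 0.19 to 0.30 for the mean of 3 libraries. With RPS16 left out of the sum it was 0.14. RPS16, a small subunit protein that reaches toward the P site with its tail, was at 2239, 2680 and 1828 FPKM in PANC1 siC and at 3180, 3079 and 3518 FPKM in siI1 (log2 fold change 0.55, SE 0.17, adjusted p 0.058). In the other lines the highest library, of A549 siI1, held 399.97 FPKM. The mean of the PANC1 siC libraries was 6.39 times the highest mean of the other lines, where the next member, RPLP2, had 1.36 times and the median protein-coding gene 0.58 times. RPS16 lies at chr19:39433137-39435949 on the minus strand (GENCODE 44, hg38). Its protein-coding neighbours within 250 kb were then looked at, a choice made after seeing the value. In the 12 that reached 0.5 FPKM in A549, ES2 or MV3, the median ratio of PANC1 to the highest other line was 4.67. PAF1, of the polymerase-associated factor complex, was at 370 FPKM in PANC1 and at 22.5 to 38.3 FPKM in the others, SUPT5H, an elongation factor, at 177 against 18.3 to 34.6 FPKM, and TIMM50, a mitochondrial import protein, at 200 against 14.8 to 25.1 FPKM. PANC1 was thus highest for 10 of these genes, from SAMD4B to EID2, and not for LRFN1 and GMFG (ratios 0.48 and 0.048), which start 127 and 105 kb from RPS16.

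**Figure D4:**
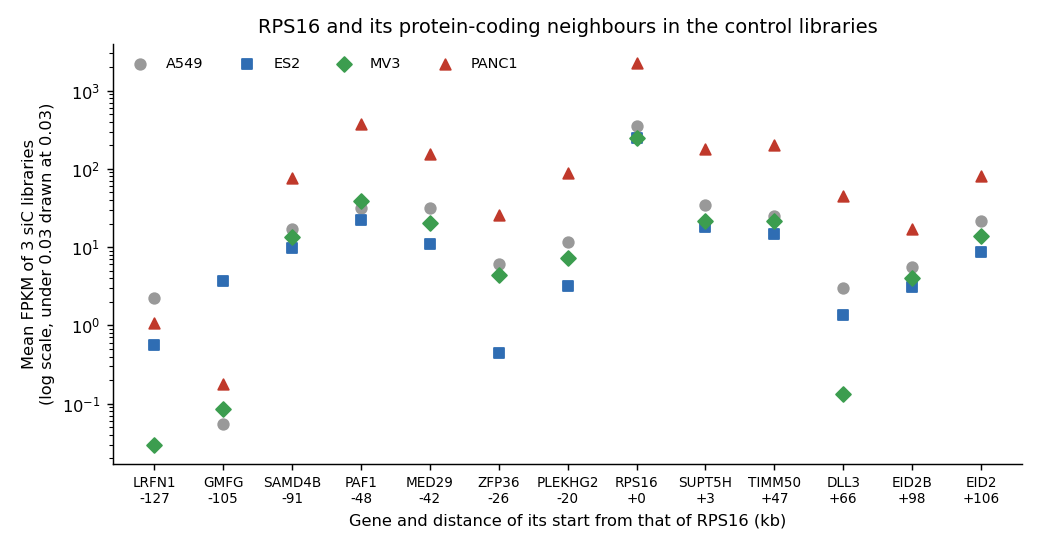
Mean FPKM of the 3 siC libraries (y axis, log scale) of RPS16 and the 12 neighbouring protein-coding genes that reached 0.5 FPKM in A549, ES2 or MV3, ordered along chromosome 19 with the distance of each start from that of RPS16 in kb. PANC1 (triangles) is the highest line from SAMD4B through EID2, with RPS16 at 2249 FPKM against at most 352 FPKM elsewhere, and not for LRFN1 and GMFG.

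Relative to their parents, most paralogs were lower upon depletion. The log2 ratio of paralog to parent in each library, on FPKM + 0.5, was compared between siI1 and siC by an exact permutation test with labels exchanged within each line, without a preset direction, over the 5 pairs with both members above the filter. It was lower in siI1 in all 4 lines for 4 of the pairs. Averaged over lines the difference was -0.40 for RPL22L1/RPL22 (exact p = 6.25e-05, adjusted 0.00015), -0.37 for RPL39L/RPL39 (0.0039, adjusted 0.0049), -0.34 for RPL26L1/RPL26 (8.75e-05, adjusted 0.00015) and -0.28 for RPL7L1/RPL7 (1.25e-05, the smallest p that the permutations allow, adjusted 6.25e-05). For RPS27L/RPS27 it was 0.03 (exact p = 0.74), with lines moving in opposite directions. Within a single line 3 against 3 libraries cannot give a p below 0.10. The parents are members, whose median change stood 0.33 above that of other protein-coding genes in A549 and 0.51 above it in PANC1. In ES2 and MV3 this distance was 0.03 and -0.05. A lower ratio therefore need not mean a fall of the paralog, and ratios of other genes to the parents were not compared. In PANC1 the rises of RPL22, RPL7 and RPL26 turned negative with equal FPKM sums and that of RPL39 was then 0.01, while the ratios are taken within a library.

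**Figure D5:**
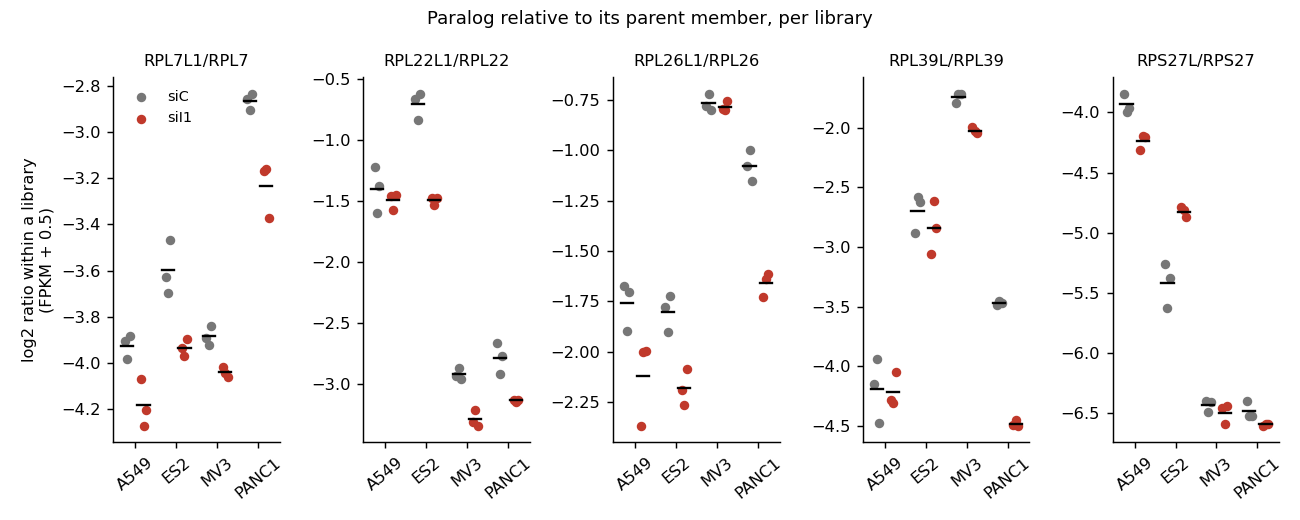
Log2 ratio of FPKM + 0.5 of each paralog to its parent (y axis, own scale per panel) in each siC and siI1 library of the 4 lines (x axis), with bars at group means. siI1 lies below siC in all lines for RPL7L1/RPL7, and RPS27L/RPS27 is higher in ES2 and lower in A549 and PANC1.

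RPL22L1 is the close relative of RPL22, an RNA-binding protein of the large subunit that is not essential for the ribosome's core function. RPL22L1 fell in ES2 from 53.8, 46.8 and 54.1 to 34.96, 33.8 and 36.3 FPKM, the largest fall of any member there (-0.55, SE 0.07, adjusted p 0.0028), while RPL22 rose (0.24, adjusted p 0.0053). Its level per length relative to RPL22 went from 61.1% to 35.4%. In MV3 it fell from 11.0, 11.4 and 9.93 to 7.75, 8.27 and 7.79 FPKM (-0.42, SE 0.06, adjusted p 0.0029), with RPL22 at -0.05. In both lines the groups did not overlap. In PANC1 RPL22L1 was at -0.07 and RPL22 rose by 0.28, and in A549 the values were 0.21 and 0.30 and the ratios overlapped. The change of RPL22L1 differed between lines (F-test adjusted p 9.8e-05).

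RPL39L, the form of RPL39 known from male germ cells, fell in MV3 from 27.8, 29.0 and 27.2 to 22.3, 22.3 and 21.8 FPKM (-0.33, SE 0.03, adjusted p 0.00083). In PANC1 it was at 20.4, 20.6 and 16.5 FPKM in siC and at 16.1, 15.8 and 16.05 FPKM in siI1 (-0.25, adjusted p 0.10), while RPL39 rose by 0.77, so its level relative to RPL39 went from 9.05% to 4.48%. This PANC1 ratio had values of -3.48, -3.45 and -3.47 in siC and -4.49, -4.45 and -4.50 in siI1, the widest gap of any pair. In A549 and ES2 the ratios overlapped, and the test over lines lost its call without replicate 1 or 2 of every group (adjusted p 0.050 and 0.066).

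RPL7L1, which takes part in the making of the large subunit, was below RPL7 in ratio in every siI1 library of each line. It fell in ES2 from 44.5, 42.7 and 45.2 to 38.4, 38.3 and 40.8 FPKM (-0.17, adjusted p 0.040) and in MV3 from 25.03, 23.98 and 24.4 to 20.8, 20.6 and 20.6 FPKM (-0.24, adjusted p 0.0014). In A549 both RPL7L1 (0.15, adjusted p 0.16) and RPL7 (0.41, adjusted p 0.0078) were above control, and in PANC1 RPL7L1 was at -0.01 where RPL7 rose by 0.36. RPL26L1 was called in no line, with values between -0.16 and 0.13, and its ratio was lower in A549, ES2 and PANC1, where RPL26 rose, going from 47.4% to 31.6% in PANC1. In MV3, where RPL26 was at -0.02, the ratios overlapped.

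RPS27L, a p53 target that differs from RPS27 in a few residues, was the exception. It rose in ES2 from 15.05, 13.04 and 14.3 to 20.2, 20.7 and 21.6 FPKM (0.55, SE 0.07, adjusted p 0.0025), the largest rise of any member there, without overlap and with RPS27 at -0.05. In A549 its value was -0.08, in MV3 0.02 and in PANC1 0.18, none of them called, and its change differed between lines (F-test adjusted p 0.00059). RPL3 rose in A549 (0.34) and ES2 (0.24) and had 0.22 in PANC1 (adjusted p 0.052). RPL10, which closes the assembly of the large subunit, was lower in MV3 alone (-0.15, adjusted p 0.048) and at 0.07, -0.15 and -0.05 in A549, ES2 and PANC1.

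Among members with a known role outside or at the edge of the ribosome, RPL5 and RPL11 form the 5S ribonucleoprotein that binds MDM2 when ribosome assembly fails. Both were called higher in A549, ES2 and PANC1. RPL5 was at 199, 202 and 186 FPKM in A549 siC and 244, 262 and 261 FPKM in siI1 (0.38), and at 0.17 in ES2, -0.01 in MV3 and 0.61 in PANC1. RPL11 was at 348, 348 and 380 FPKM in ES2 siC and 460, 445 and 478 FPKM in siI1 (0.36, SE 0.05, adjusted p 0.0055), and at 0.37, -0.09 and 0.44 in A549, MV3 and PANC1. With equal FPKM sums the PANC1 values of both turned negative.

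Of the 3 proteins of the stalk, which recruits elongation factors, RPLP0, its base, rose in A549 by 0.22 (adjusted p 0.043) and in PANC1 by 0.31 (adjusted p 0.025), and had -0.02 and -0.10 in ES2 and MV3. RPLP1 was called in no line and overlapped in all 4. RPLP2 was called only in MV3, with 0.13, -0.30 and 0.08 in A549, ES2 and PANC1. Of the 9 proteins at the rim of the exit tunnel, 7 rose in A549, 4 in ES2 and 8 in PANC1, and 1, RPL23A, fell in MV3. Over all members 57.3% rose in A549, 15.9% in ES2 and 68.3% in PANC1, and 22% fell in MV3. With equal FPKM sums 0 PANC1 members were called higher. RPSA, also known as the laminin receptor, was called nowhere, with 0.32 in A549 (adjusted p 0.058), 0.08 in ES2, -0.08 in MV3 and 0.18 in PANC1. Between 35.1% and 47.4% of the reads of RPSA and its listed pseudogenes fell on the latter. RPS27A, made as a fusion with ubiquitin, rose in A549 (0.37) and PANC1 (0.27) and fell in MV3 (-0.18). RPS4X rose in A549 (0.32) and PANC1 (0.56) and had -0.04 and -0.08 in ES2 and MV3. With equal FPKM sums the PANC1 values of RPLP0, RPLP1, RPLP2, RPSA, RPS27A and RPS4X turned negative.

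Members with and without the TOP tract at a RefSeq start were set side by side, with no test of the difference. In A549 the medians were 0.31 for 47 members with it and 0.28 for 19 tested members without it, and in PANC1 they were 0.48 and 0.41. ES2 had -0.0067 and -0.041, and MV3 -0.063 and -0.081. Other genes with the tract stayed near zero: 635 other genes with it had a median of 0.01 in A549 and 606 had 0.00 in PANC1, near the -0.04 of other genes without it in both lines. Of 16 further TOP mRNAs looked at, 15 passed the filter, among them translation factors. Of these, 6 were higher and 1 lower in A549, 4 and 3 in ES2, 2 and 3 in MV3, and 6 and 3 in PANC1. Of all tested genes, 5.93%, 10.5%, 16.3% and 11.3% were higher and 7.83%, 13.0%, 19.5% and 13.4% lower in the same lines, so the MV3 counts were near the shares of all genes. NAP1L1, a histone chaperone, rose in A549 (0.34) and ES2 (0.55), and RACK1, a scaffold bound to the small subunit, rose in PANC1 (0.62). NPM1, a nucleolar chaperone, fell in ES2 (-0.48), MV3 (-0.67) and PANC1 (-0.62). Of the ribosomal protein genes that the name rule misses, FAU rose in PANC1 (0.49) and RPL36AL fell in ES2 (-0.27).

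Transcript length was set beside the members since they are short, with a median canonical transcript of 827 nt in GENCODE 44. Other protein-coding genes of at most 1000 nt had medians of 0.04 in A549 and 0.21 in PANC1, and those over 5000 nt had -0.07 and -0.16. In ES2 the order turned, at -0.15 and 0.03, and in MV3 both were near zero (-0.02 and -0.01). In PANC1 short genes were thus higher as well, by less than the members, and the part of length in the members' change was not tested.

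Lists of genes that act around the ribosome were set beside the members, with the shares of all tested genes given for each line above. Of 35 genes of ribosome biogenesis, 21 were lower in ES2 and 29 in MV3, with no rise called at this threshold or at an unadjusted p under 0.05, at medians of -0.25 and -0.39, and BYSL, needed for the small subunit, fell in both (-0.76 and -0.69). PANC1 had 8 lower and 5 higher and A549 3 and 1, with FBL, the methyltransferase of box C/D particles, among the rises in both (0.47 and 0.41). Of the 78 proteins of the mitochondrial ribosome, 33 were lower and 1 higher in ES2 and 36 and 1 in MV3, at medians of -0.21 and -0.19, while A549 had 3 and 8 (median 0.01) and PANC1 7 and 16 (median 0.14). Of 12 regulators of TOP mRNAs, limma called 0 in A549, also at an unadjusted p under 0.05. LARP1 was lower in ES2 (-0.33) and MV3 (-0.37), as was EIF4EBP1, the translation repressor under mTOR (-0.67 and -0.46), which was higher in PANC1 (0.48).

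Introns of the members also carry snoRNAs, which guide the modification of ribosomal RNA. GENCODE 44 places 60 of them inside 28 members on the same strand. Of these, 19 passed the filter in ES2, with 3 lower and a median of -0.36, and 16 in MV3, with 3 lower and a median of -0.42, and neither line had a rise at an unadjusted p under 0.05. Of all tested genes 13.0% and 19.5% were lower in these lines, shares near those of the snoRNAs. The other snoRNAs had medians of -0.06 and -0.16. SNORD100 and SNORD101, both inside RPS12, were among those that fell in ES2 (-0.77 each). In A549 0 of 18 were called by limma (2 lower and 1 higher at an unadjusted p under 0.05), and in PANC1 3 of 17 were higher. These genes are short and have few reads.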

How the data were processed

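Total RNA depleted of ribosomal RNA was sequenced in 4 lines, with 3 siC and 3 siI1 libraries each, which the study's methods call biological replicates. The authors trimmed reads with Cutadapt 1.14, aligned them to hg38 with HISAT2 2.1.0 (SAMtools 1.5), counted them per gene with featureCounts 1.5.3 on Ensembl 89 and normalised with edgeR 3.30.3 (TMM). The deposited values are FPKM, in a table for each line, on that line's own scale. Deposited fold changes and p-values of the authors' tests were not used. Value times gene length was a whole multiple of 1 step in 100% of values, which gave reads per library.

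Members and lists were chosen with earlier results of these data known. In each line, genes that averaged 0.5 FPKM or more were tested on log2(FPKM + 0.5) by limma 3.58.1 (R 4.3.3, trend). P-values are for both directions, adjusted after Benjamini-Hochberg over every gene tested, with a threshold of 0.05. A fold change is on this log2(FPKM + 0.5) scale, which understates low genes. Lines were compared by a limma F-test over 24 libraries. The authors tested counts in edgeR, which was not run here. Alternatives were other pseudocounts (0.1 and 1), filters (none and 5 FPKM), 4 scalings, limma voom on recovered reads, pseudogene reads added to parents, a replicate block and leaving out each library. The scaling without misc_RNA and the pseudogene setting were added after seeing the data. Named genes are those with the 3 largest called changes per direction and line, those called alike in all lines or in opposite directions in 2 (the 5 of smallest p), all paralogs with their parents, stalk, 5S particle, RPSA, RPS6, RPS27A, RPS4X and members under the filter. RPL17 in A549, RPL36A, RPS16 and its neighbours, and the snoRNAs were chosen after their values were seen. Some items are not reported here. The scripts were tested on simulated data.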

Additional observations from a re-analysis of the deposited data

Results flagged for a closer look

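The change upon depletion differed between lines for 73 of 82 members by the limma F-test, in a set of 12816 genes of which 45.0% did. The smallest adjusted p-values of that F-test among members were 2.17e-06 for RPL27 (0.48 and 0.78 for A549 and PANC1, 0.08 and -0.09 for ES2 and MV3), 2.91e-06 for RPL39, 1.29e-05 for RPL5, 1.66e-05 for RPL35 and 3.03e-05 for RPS24. For all 5 the highest log2 fold change was in PANC1, harvested later than the other lines, and the lowest in MV3. The misc_RNA genes, outside the comparison of members, held 23.2% ± 2.29 (SD, n = 3) of assigned reads in PANC1 siI1 and 12.7% ± 2.66 in siC. Their part in the members' values was measured only through the scalings with and without them. Groups of 3 libraries were not searched for outlying samples.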

How the results depend on the processing

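Other pseudocounts changed no call of a named gene. With equal FPKM sums the median change was -0.28 in PANC1, with 34 lower and 0 higher, and 0.068 in ES2, with 28 lower in MV3; PANC1 values that turned negative were RPL10A -0.51, RPL11 -0.31, RPL15 -0.41, RPL22 -0.47, RPL23A -0.22, RPL26 -0.23, RPL3 -0.53, RPL4 -0.74, RPL5 -0.15, RPL7 -0.39, RPLP0 -0.44, RPLP1 -0.47, RPLP2 -0.67, RPS27 -0.47, RPS27A -0.48, RPS27L -0.48, RPS4X -0.19, RPS6 -0.29 and RPSA -0.58. Without misc_RNA in the sum the median was 0.034 in MV3 (8 lower, 16 higher) and 0.12 in ES2 (1 lower, 32 higher), RPL26 was 0.085 and RPL5 0.11 in MV3, and 1 member each was lower in A549 and PANC1. Voom gave 1 lower in A549 and PANC1, 18 lower and 22 higher in ES2 and 30 lower in MV3. Both centrings gave 2 lower in ES2, a filter of 5 FPKM 9 lower in ES2, and no filter 1 lower in ES2 and 10 in MV3. The cause of these shifts was not tested.

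The replicate numbers did not pair the libraries (correlations of deviations from -0.056 to 0.071, and 3 of 12 number pairs correlated best with their own number). With a replicate block 3 members were higher in A549, 7 in ES2 and 42 in PANC1, 7 were lower in MV3, and the paralog ratios kept their calls. Leaving out a library gave 17 to 37 higher in A549, 6 to 11 higher and 1 to 5 lower in ES2, 8 to 21 lower in MV3, 32 to 66 higher and 0 to 1 lower in PANC1, and 70 to 77 members that differed between lines. Median changes then ran from 0.27 to 0.34 for A549, -0.023 to 0.030 for ES2, -0.10 to -0.051 for MV3 and 0.38 to 0.55 for PANC1. Without a replicate number the ratio differences were -0.44 to -0.37 for RPL22L1, -0.37 to -0.28 for RPL26L1, -0.41 to -0.33 for RPL39L, -0.31 to -0.23 for RPL7L1 and -0.012 to 0.077 for RPS27L. The subunit difference with medians was -0.031 in A549, -0.049 in MV3, 0.098 in ES2 and -0.27 in PANC1, and 0.095 in ES2 without the 5 members of highest level; leaving out a library gave 0.049 to 0.080 for A549, 0.12 to 0.13 for ES2, 0.0037 to 0.012 for MV3 and -0.0032 to 0.053 for PANC1.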
